A study of Homo sapiens with 24 samples.

Results

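The mitochondrial ribosomal protein genes are the protein-coding genes whose RefSeq symbol starts with MRPL or MRPS. RefSeq lists 77 of them, 49 MRPL and 28 MRPS, among 20052 protein-coding symbols. Of the 77, 63 had at least 1 peak of N1-methyladenosine (m1A) enrichment in at least 1 of 10 peak lists (81.8%). Of all protein-coding symbols, 8840 had one (44.1%). The members' 330 peaks lay on 95 transcripts, of 61237 peaks on 17315 transcripts in all. The other 14 members had no peak in any list: MRPL19, MRPL21, MRPL22, MRPL32, MRPL35, MRPL39, MRPL48, MRPL50, MRPL53, MRPS12, MRPS17, MRPS18B, MRPS18C and MRPS28.

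Mitochondria translate the few proteins of their own genome on a dedicated ribosome. Its proteins are encoded in the nucleus, translated in the cytosol and imported, and they join mitochondrial ribosomal RNA in a large (MRPL) and a small (MRPS) subunit. A few symbols predate the structures, and MRPS30 and MRPS18A are now placed in the large subunit. m1A is a methyl mark on the base-pairing face of adenosine that stops or misleads reverse transcriptase. It can be enriched with an antibody and erased with a demethylase, and ALKBH3 is an enzyme known to remove it from RNA. The peaks described here lie on the nuclear-encoded messenger RNAs of the mitochondrial ribosome, not on its ribosomal RNA.

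All libraries came from polyadenylated RNA of HEK293T, a human embryonic kidney cell line. The 24 libraries form 12 groups of 2 replicates. Wild-type cells (WT) and ALKBH3 knockout cells (KO), both without treatment, each had input libraries, libraries immunoprecipitated with an anti-m1A antibody (IP), and IP libraries that were then treated with a demethylase. Wild-type cells left untreated as the control of the stress experiment (UT), wild-type cells exposed for 30 min to H2O2 at 50 µM (H2O2), and wild-type cells kept 16 h in medium without serum (starved) had input and IP libraries. Whether the knockout was 1 clone, and whether replicates were separate cultures, is not stated in the labels, so the spread between replicates may be technical. ALKBH3 itself had 0 peaks, so its deletion could not be checked from peaks. The labels' descriptions of the UT libraries point to the starved lists, and the naming of the lists was followed instead, in which the peaks of the UT lists carry the name WT. Every comparison with UT rests on that choice. List lengths were 2175 and 3410 peaks in WT, 3447 and 3524 in KO, 7871 and 9295 in UT, 7459 and 3903 in H2O2, and 11362 and 8791 in starved cells. Total reads per library are not given, so the depth behind a missing peak is unknown, and "not called" does not mean unmethylated. In bulk RNA, fewer marked cells and less marked RNA per cell cannot be told apart. Among 14 genes that mark other cell types, 13 had no peak, and the exception was COL1A1 in both UT lists (fold enrichment 6.53 and 3.45).

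For 5 members a region called in both replicates of a condition began within the first 50 nt of a transcript. MRPL10 is left out here because its peaks lie on several transcripts with different starts. Bases 18 to 47 of the other 4 are shown because the 5′ edge of the region, merged over all lists, falls in them. They were taken from RefSeq (GRCh38.p14) at the current start of each gene, and the transcript versions used for the lists are not given. Bases in capitals lie inside the merged region.
MRPS26: atgctaCGCGCGCTGAGCCGCCTGGGCGCG
MRPL58: atggCGGCCACCAGGTGCCTGCGCTGGGGC
MRPL20: gatggcagcggcgctgcgcgtgcgttgttG
MRPL36: gtcggcgccgggtgagAGCGTGCGGCCGGG
The MRPS26 stretch is chr20:3046069-3046098 on the plus strand, and that of MRPL58 is chr17:75012687-75012716 on the plus strand. The MRPL20 stretch is chr1:1407247-1407276 on the minus strand, and that of MRPL36 is chr5:1799791-1799820 on the minus strand. In the first 3 an ATG stands at or near the left end of the printed stretch. The first ATG of the transcript was at nt 18 in MRPS26 and MRPL58 and at nt 19 in MRPL20. The merged regions began 6, 4 and 28 nt after it. For MRPS26 that edge, at nt 24, came from starved cells. Its region began at nt 31 in H2O2 and at nt 50, 52 and 51 in WT, KO and UT, past the printed bases. MRPL36 had no ATG in its first 50 nt. An ATG, searched on the sense strand only, occurred in the first 50 nt of 50 of the 69 members with an entry (72.5%). Over all 35116 gene starts the share was 40.2%. These starts outnumber the 20052 protein-coding symbols, so they include other genes or repeat some genes. Members were counted by gene, so the shares differ in unit and no excess in members can be read from them. A match of the letters ATG does not show that translation starts at it.

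Most members were called in few lists, and a small set was called almost throughout. Of the 63 members with a peak, 19 were in 1 list (30.2%, against 28.7% of all 9318 genes with a peak), 35 in 2 to 5 lists and 5 in 6 or 7. Only 4 were in 8 lists or more (6.35%, against 5.48% of all genes). By symbol, 40 of 49 MRPL genes (81.6%) and 23 of 28 MRPS genes (82.1%) had a peak. By list, 7 and 7 members had a peak in WT, 24 and 23 in KO, 22 and 21 in UT, 20 and 12 in H2O2 and 32 and 27 in starved cells. As a share of all genes with a peak in the same list, members made up 0.555% and 0.343% in WT and 1.17% and 1.1% in KO. In the 6 lists of the stress experiment that share lay between 0.497% and 0.702%. The KO lists thus stood above the 8 others in this share, while the starved lists held the most members by number.

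**Figure D1:**
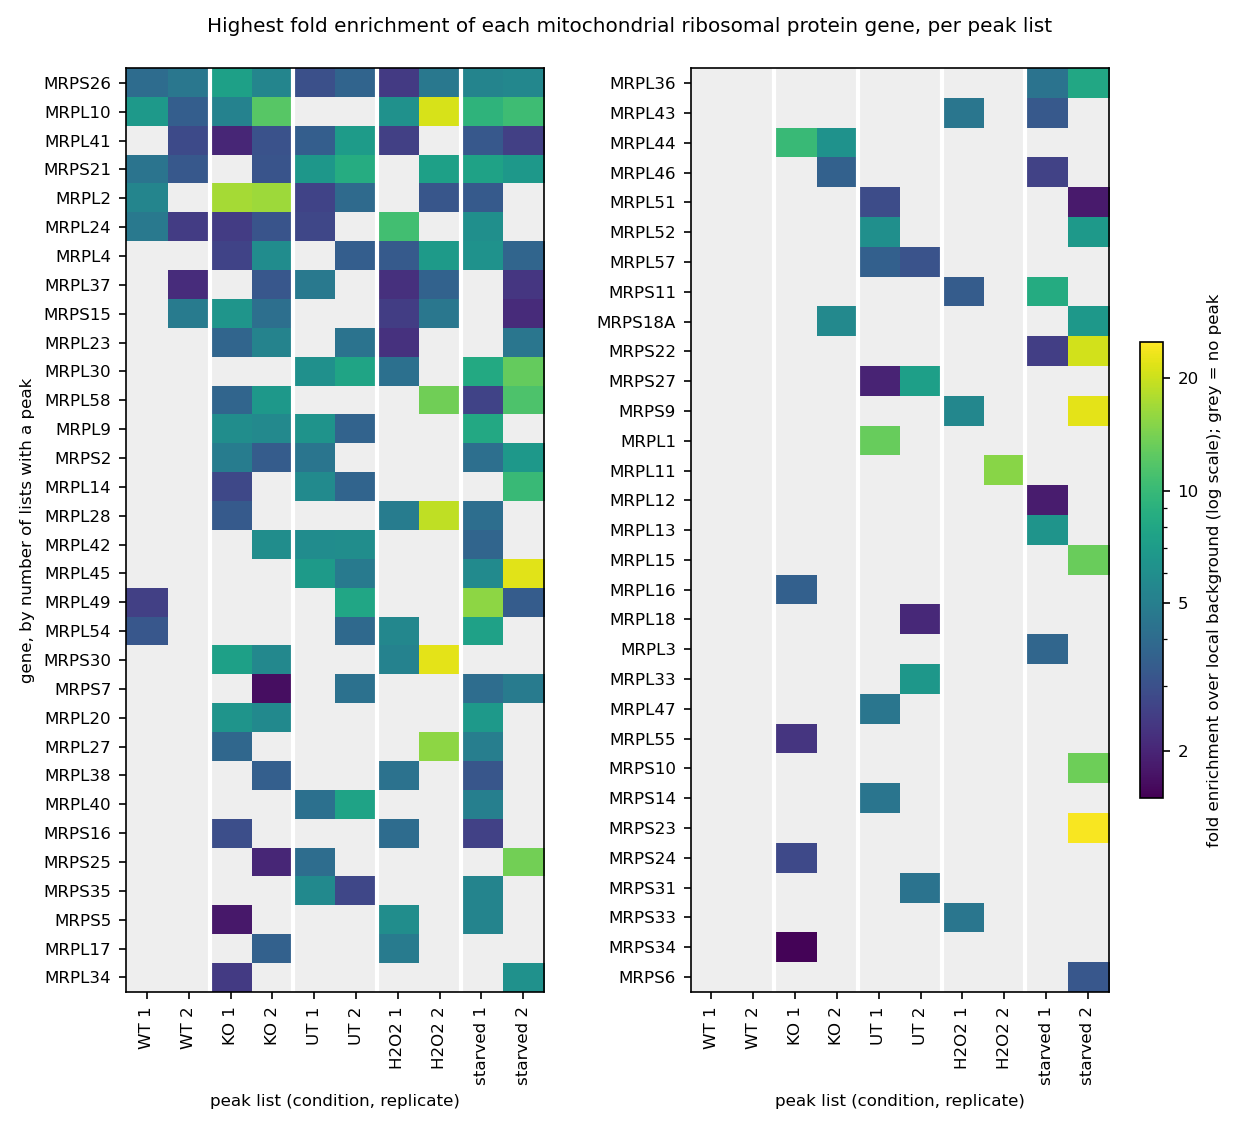
Highest fold enrichment over local background, on a log colour scale, of each of the 63 members with a peak (rows, ordered by the number of lists) in each of the 10 peak lists (columns, 2 replicates a condition). Grey means that no peak was called. MRPS26 is the only row filled in all 10 lists, MRPL10 is empty only in UT, and MRPL2 is highest in KO, at 17.2 and 16.6.

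The proteins called in the most lists came from both subunits. MRPS26, a small-subunit protein without a bacterial counterpart, was called in all 10 lists at nt 24 to 175 of its transcript NM_030811. Its fold enrichment, the authors' ratio of IP over background at a peak, came to 4.05 and 4.59 in WT, to 7.44 and 5.41 in KO, to 2.98 and 3.71 in UT, 2.42 and 4.65 in H2O2 and 5.32 and 5.51 in starved cells. The 2 KO values were above both WT values, and the UT and H2O2 values overlapped. Its pileup, the deposited coverage at the summit, reached 590 and 1317 in WT, and in KO 1124 and 1123, so on that scale the groups overlapped. The summit of this MRPS26 region lay between nt 89 and nt 134 in every list. The second H2O2 list also held a peak at nt 226 to 325, with a fold of 1.98.

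MRPL10, counterpart of the bacterial protein at the base of the ribosomal stalk, was called in all 8 lists other than UT. On transcript NM_148887 its fold stood at 6.83 and 3.43 in WT, at 3.35 and 4.31 in KO, at 5.21 and 21 in H2O2 and 9.39 and 10.4 in starved cells. On this transcript the 2 starved values stood above all WT and KO values, while the H2O2 replicates differed widely from each other. Fold scales differ between lists: the median over all peaks was 3.81 in the first WT list and 4.04 and 6.64 in the starved lists. Within their lists, folds of 9.39 and 10.4 in starved cells exceeded 95.2% and 74.7% of the peaks. The 6.83 of the first WT list exceeded 87.9%, so the order of the values does not hold by rank. Its summits in the merged region at nt 13 to 447 of NM_148887 ranged from nt 127 to nt 371. Further along the same transcript, the first starved list held a peak at nt 1204 (fold 5.66). The second starved list held one at nt 1317 (fold 5.12), and these 2 peaks did not overlap. A second transcript, NR_037575, repeated the signal 51 nt further along in 5 lists where both had the same pileup, so its peaks are not separate evidence. On another transcript, NM_145255, 7 lists held a region at nt 48 to 349 with summits at nt 104 to nt 150, and its highest pileups were 656 and 1002, in KO. There the folds were 3.25 in the second WT list, 5.23 and 12.1 in KO, 6.25 and 18.7 in H2O2, and 6.28 and 5.21 in starved cells. On that transcript the starved folds did not stand above those of KO.

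MRPL41, a large-subunit protein, was called in 8 lists, and absent from the first WT list and the second H2O2 list. Its fold was 2.83 in the WT list that held it, 2.02 and 3.05 in KO, 3.46 and 7.03 in UT, 2.56 in H2O2 and 3.24 and 2.55 in starved cells. Both UT values lay above all others, the lower of them by little. Its summits lay at nt 130 to nt 184. MRPS21, counterpart of a bacterial small-subunit protein, was called as a gene in 8 lists with folds from 2.43 to 8.58. Its summits ran from nt 94 to nt 1148 over 2 transcripts with different coordinates. A region at nt 48 to 159 of NM_018997 was called in the first WT and first starved lists. At nt 48 to 159 of NM_031901 a region was called in the second WT, second KO, first UT and second starved lists. The second UT and second H2O2 lists held peaks elsewhere only, so no region was common to all 8 lists.

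MRPL2, whose bacterial counterpart borders the peptidyl transferase centre, had the highest folds of any member in KO. In KO its fold was 17.2 and 16.6 at nt 186 and nt 182, with pileups of 1943 and 2046. Those peaks ranked 17 of 3447 and 19 of 3524 in their lists. The first WT list held a peak at nt 154 with a fold of 5.42 and a pileup of 434, and the second WT list held none. MRPL2 was therefore not specific to KO by the rule used below. It was also called in 4 lists of the stress experiment, with folds of 2.63 to 3.95. Only the second UT list and the second H2O2 list held the region described, with summits at nt 176. The peaks of the first UT and first starved lists lay elsewhere, at nt 807 and nt 1002. The highest folds of all stood in single replicates, in the 2 lists with the highest median fold over all peaks. That median was 6.64 in the second starved list and 8.27 in the second H2O2 list. In the second starved list MRPS23 had 24.3, MRPS9 22.3, MRPL45 22 and MRPS22 20.7. These exceeded 98.4% to 99.1% of the peaks in that list. In the second H2O2 list MRPS30 had 22.2 and MRPL10 21, above 88.8% and 87% of its peaks. MRPS23 had no peak in any other list, so its value has no replicate.

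Among members, replicates agreed best in KO and least in UT, while over all transcripts the lowest share was that of H2O2. Peaks of a transcript with at least 1 nt in common were merged into a region. In KO, 23 of 47 member regions were called in both replicates (48.9%), against 51.2% over all transcripts. In WT the count was 4 of 14 (28.6%, against 21.4%), and in UT it was 4 of 74 (5.41%, against 9.42%). In H2O2 it was 7 of 45 (15.6%, against 8%) and in starved cells 13 of 99 (13.1%, against 8.79%). By gene, 14 members had a region in both replicates in KO, 3 in WT, 4 in UT, 5 in H2O2 and 7 in starved cells. Regions on several transcripts of 1 gene repeat a signal, so the counts of regions are not independent.

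Where both replicates called a region, they did not always give it a similar height. The peaks of such a region overlap by the merging rule, which itself limits how far apart the summits can lie. The median distance between the 2 summits was 8 nt in WT, 13 nt in KO, 13.5 nt in UT, 18 nt in H2O2 and 25 nt in starved cells. The widest distance, 257 nt, was that of MRPL30 in starved cells. In H2O2 the second replicate gave the higher fold in all 7 member regions, with a median ratio of 2.24 (range 1.85 to 3.94). Over all 841 H2O2 regions of both replicates the median ratio was 1.67, with 71.2% higher in the second. In KO the median ratio was 1.06 over 23 member regions, and 0.961 over all.

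**Figure D2:**
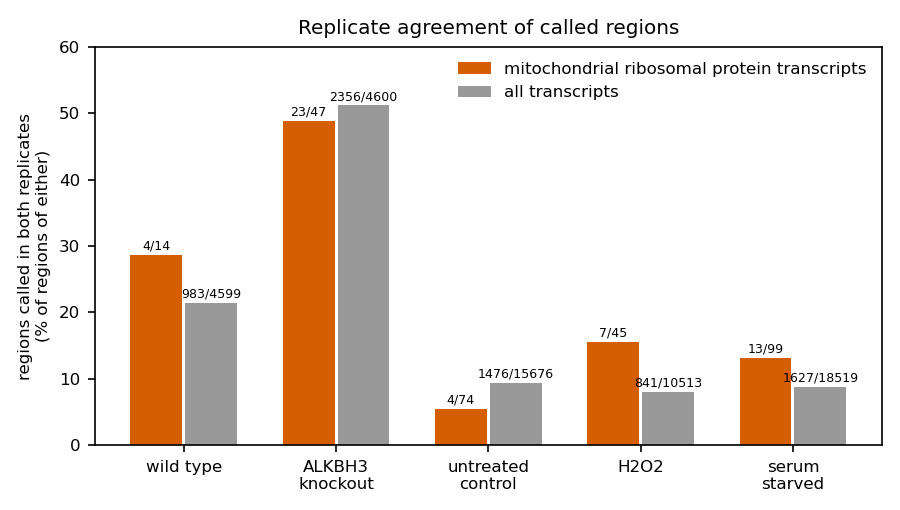
Regions called in both replicates as a percentage of the regions called in either, for mitochondrial ribosomal protein transcripts and for all transcripts, by condition. The fractions over the bars give the counts. Member regions are highest in KO, at 48.9%, and lowest in UT, at 5.41%. All transcripts are also highest in KO, at 51.2%, but UT, at 9.42%, is above H2O2 at 8% and starved cells at 8.79%.

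Peaks on members lay near the 5′ end of the transcript in WT and KO, and were spread further along it in the stress experiment. A summit within the first 300 nt was found for 88.9% and 88.9% of member peaks in WT (9 and 9 peaks) and for 78.8% and 81.1% in KO (33 and 37 peaks). In UT it was 47.5% and 28.9%, in H2O2 52.9% and 61.1%, and in starved cells 50.8% and 35.8%. The 4 lists of WT and KO did not overlap with the 6 others. The same split held over all transcripts: 55.4% and 73.9% in WT and 72.7% and 71.6% in KO, against 29.2% to 45% in the others. No member summit lay within nt 60, and the one closest to the start, in starved cells, was at nt 63. Such summits were rare over all transcripts too, with 0 to 55 per list in lists of 2175 to 11362 peaks. The most distant summits per list were at nt 321 and 316 in WT, and at nt 642 and 622 in KO. In the stress experiment they were at nt 1094 to 1916.

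**Figure D3:**
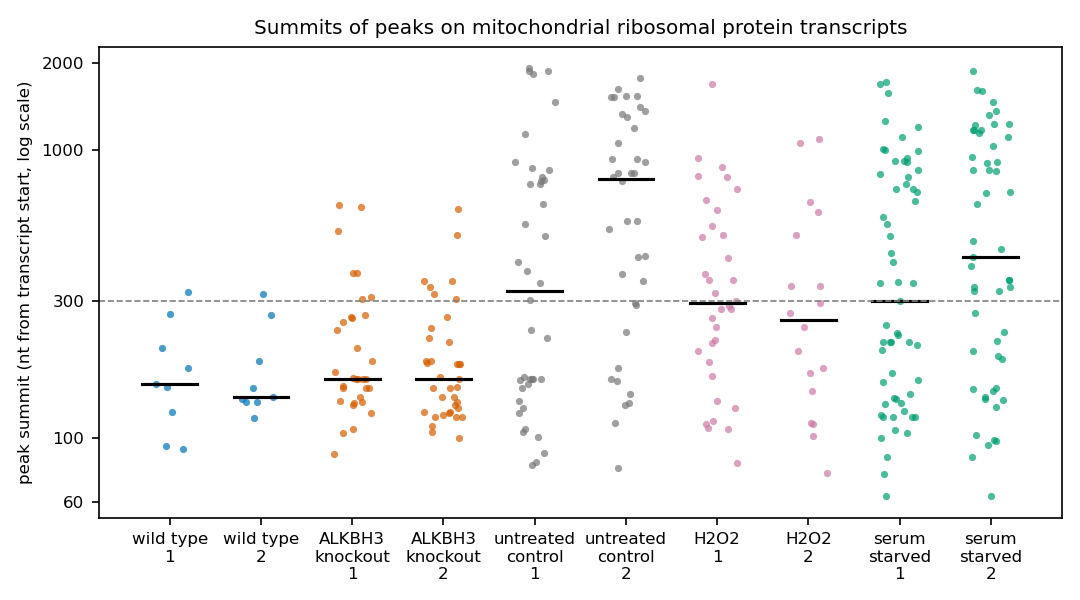
Summit of every peak on a mitochondrial ribosomal protein transcript, in nt from the transcript start on a log axis, by list. Each point is 1 peak, black bars are medians, and the dashed line marks nt 300. Medians are 154 and 139 in WT and 161 and 161 in KO, against 257 to 792 in the other lists.

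Among members, whether regions called in both replicates were nearer the start than those called in only 1 differed by condition. In UT, 3 of 4 regions of both replicates had their summits within 300 nt (75%), against 24 of 70 regions of 1 replicate (34.3%). Over all transcripts the shares in UT were 64.4% and 28%. In starved cells members gave 6 of 13 (46.2%) against 36 of 86 (41.9%), while all transcripts gave 62.3% and 24.8%. In H2O2 the members gave 5 of 7 (71.4%) against 19 of 38 (50%). In WT and KO the order of the members was the opposite, on few regions. It was 3 of 4 against 10 of 10 in WT, and 18 of 23 (78.3%) against 20 of 24 (83.3%) in KO. Over all transcripts the order did not turn: 83.1% and 58% in WT, 76.1% and 63.9% in KO, and 71.7% and 32.4% in H2O2.

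A few members had their summits beyond nt 300 in both replicates. MRPL4, whose bacterial counterpart lines the exit tunnel, had them at nt 373 and 352 in KO, 355 and 337 in H2O2 and 345 and 354 in starved cells on NM_015956. On NM_146387, a transcript whose coordinates run 136 nt lower, the same signal stood at nt 237 and 216 in KO. MRPL23, counterpart of a protein at the tunnel exit, had summits at nt 635 and 622 in KO. MRPS30 had a region at nt 522 and 506 in KO beside another at nt 134 and 185. MRPL30 had summits at nt 905 and 927 in UT and at nt 850 and 1107 in starved cells. MRPL49, a large-subunit protein found in mitochondria only, had them at nt 1716 and 1618 in starved cells. MRPL10 was just past the limit on NR_037575, at nt 321 and 316 in WT and 305 and 304 in KO.

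The study's first comparison asks which m1A regions appear without ALKBH3. A region was counted as KO-only when both KO lists held it and neither WT list did. With 2 lists against 2 no test of a single region can pass 0.05, as the smallest exact p is 0.333, so counts stand beside the share over all genes. Of 35 members with a region in the 4 lists, 8 had a KO-only region (22.9%), where the share over all 3903 genes was 18.9%. The members' share was thus near that of all genes. With 1 KO list alone in place of both, the count was 15 without the first and 18 without the second, beside 1253 and 1164 of all genes. A WT-only region was found in 1 of the 35 (2.86%), against 5.2% of all genes. A region in all 4 lists was found for 2 members, MRPL10 and MRPS26, against 8.35% of all genes.

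The 8 KO-only members were MRPL4, MRPL9, MRPL20, MRPL23, MRPL44, MRPL58, MRPS2 and MRPS30. MRPL44, a protein with an RNase III-like fold near the tunnel exit, had folds of 10.1 and 6.26 at nt 118 to 355. MRPL20, counterpart of an early-binding bacterial assembly protein, had folds of 6.41 and 5.71 at nt 47 to 178. MRPL9 had folds of 5.94 and 5.64, with summits 1 nt apart at nt 162 and 163. MRPS30 had folds of 7.39 and 5.6 in its downstream region and 3.4 and 2.11 in the upstream one. These 4 genes held the highest lower folds of the set.

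The other 4 KO-only members had lower values in at least 1 replicate. MRPL58, a peptidyl-tRNA hydrolase built into the ribosome that can rescue stalled translation, had folds of 3.74 and 6.72 at nt 22 to 142, the region whose edge is printed above. MRPL23 had folds of 3.77 and 5.26. MRPL4 had folds of 2.65 and 5.8 on NM_015956 and MRPS2, which has a bacterial counterpart in the small subunit, had 4.91 and 3.4 on NR_051969 and 2.03 and 2.22 on NM_016034. No WT list held a peak on any transcript of these 8 genes.

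Most of these regions were also called in at least 1 list of wild-type cells of the stress experiment, several of them only under stress. For 7 of the 8 genes, at least 1 of the 6 lists of UT, H2O2 and starved cells held a peak that overlapped the KO-only region (87.5%). Over all 739 genes with a KO-only region that share was 70.1%. The MRPL9 region was called in both UT lists, with folds of 6.37 and 3.67 and summits at nt 163 and 161. The MRPL4 region on NM_015956 was called in 5 of the 6, with the second UT list among them. The MRPS2 regions were called in the first UT list. For MRPL20, MRPL23, MRPL58 and MRPS30 no UT list held the region, and each region was met in 1 list of stressed cells. MRPL44 was the exception, and no list other than the KO lists held a peak on it.

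The WT-only member was MRPL24, with folds of 4.7 and 2.48 and pileups of 50 and 43 at nt 80 to 185 of NM_024540. In KO the peaks of the same gene were called on another transcript, NM_145729, with folds of 2.47 and 3.12. Counted by gene rather than by region, MRPL24 was called in all 4 lists.

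The stress comparisons ask which regions appear after H2O2 or without serum. Both use the same 2 UT lists as controls, so their results are not independent. Of 45 members with a region in the H2O2 or UT lists, 4 had an H2O2-only region (8.89%), where the share over all genes was 2.33%. A UT-only region was found in 1 of the 45 (2.22%), against 5.49% of all genes. With peaks anywhere on the gene deciding, the order of the members turned: 4 were H2O2-only (187 of all genes) and 8 UT-only (619 of all genes). Of 54 members with a region in the starved or UT lists, 4 had a starved-only region (7.41%), against 5.34%. None of the 54 had a UT-only region, against 4.06% of all genes. These counts rest on both replicates: with 1 list of the stressed cells left out they were 11 and 14 for H2O2 (1439 and 2659 of all genes) and 19 and 25 for starved cells (3129 and 3931 of all genes). The H2O2 count grew less than that of all genes, from 4 beside 175. All 4 lists held a region of 1 member in the H2O2 comparison (2.65% of all genes) and of 3 members in the starvation comparison (3.18% of all genes).

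The H2O2-only members were MRPL4, MRPL10, MRPL28 and MRPS15. MRPL10 had folds of 6.25 and 18.7 on NM_145255, with summits 2 nt apart at nt 115 and 113. MRPL28, counterpart of a bacterial large-subunit protein, had 4.87 and 19.2 at nt 75 to 253. MRPL4 had 3.1 and 6.94 on NM_146387, and MRPS15, a central-domain protein of the small subunit, had 2.49 and 4.59 with summits at nt 288 and 169. In all 4 the second H2O2 replicate gave the higher fold, as it did over most genes. MRPL9 was the UT-only member.

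The starved-only members were MRPL4, MRPL10, MRPL36 and MRPL49. MRPL10 had folds of 9.39 and 10.4 on NM_148887, the highest of the set. MRPL36, counterpart of the smallest bacterial large-subunit protein, had 4.36 and 8.13 at nt 34 to 203 and no peak in any other condition. The MRPL49 region at nt 1584 to 1788 of NM_004927 was also called in starved cells only, with folds of 3.9 and 3.24 and pileups of 53 and 63. MRPL49 had other peaks in 2 lists of other conditions. MRPL4 had folds of 5.73 and 3.77 on NM_146387.

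MRPL10 and MRPL4 were called in both stresses and not in UT at these transcripts. For MRPL10 neither UT list held a peak on any transcript. For MRPL4 the second UT list held peaks, so that on NM_015956 the region was in 7 lists and not specific to either stress. The WT lists give a second set of untreated wild-type cells. Both WT lists held the MRPL10 region on NM_148887 with folds of 6.83 and 3.43, so MRPL10 was also the 1 member of 32 with a WT-only region against UT (3.12%, against 2.98% of all genes).

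Comparing UT with WT sets untreated wild-type cells against untreated wild-type cells, from the stress and the knockout experiment. UT-only regions were found in 2 of 32 members (6.25%, against 6.58% of all genes): MRPL9, with folds of 6.37 and 3.67, and MRPL30, with 6.17 and 4.52 at nt 833 to 975. All 4 lists held a region of 1 member, against 3.94% of all genes. The numbers of members called between these matched groups, 2 and 1, are as large as some of those between treated and untreated cells. With peaks anywhere on the gene deciding, 9 members were UT-only (950 of all genes).

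Proteins of the mitochondrial ribosome that carry other symbols, and factors that build or serve it, were described from lists drawn up by function. All 5 ribosomal proteins under other symbols had a peak. Of these, GADD45GIP1, a large-subunit protein, was called in 6 lists with folds of 4.99 and 2.45 in KO and none in WT. PTCD3, a small-subunit protein of the pentatricopeptide repeat family, had 4.99 and 5.01 in KO and none in WT. Of the 23 assembly factors, 21 had a peak. A KO-only region was found for 4 of 12 with a region there (MALSU1, MTERF3, MTG1 and RPUSD3) and a WT-only region for 0, where all genes gave 18.9% and 5.2%.

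Single factors stood out by the number of lists. MPV17L2, an assembly factor of the inner membrane, was called in 9 lists with folds of 28.3 and 20 in UT, 37.3 and 11.4 in H2O2 and 26.1 and 41.4 in starved cells. Its fold was 10.7 in the second WT list, with no peak in the first, and 3.63 and 3.1 in KO. SLIRP, an RNA-binding partner of LRPPRC in mitochondrial messenger stability, was called in 9 lists with folds of 25.3 and 6.94 in WT and 14.2 and 11.8 in KO. HSD17B10, a subunit of mitochondrial RNase P, was called in 9 lists, with 12.6 and 4.27 in WT and 6.94 and 6.31 in KO. Among genes with a region in KO or WT, a KO-only region was found for 2 of 5 translation factors (MTRF1L and TUFM), 1 of 5 aminoacyl-tRNA synthetases (IARS2) and 1 of 4 tRNA processing factors (GTPBP3), against 18.9% of all genes. None of these 3 lists had a WT-only region against KO. In the stress comparisons, starved-only regions were found for 1 of 19 assembly factors (DHX30), 1 of 14 synthetases (LARS2), 2 of 6 tRNA processing factors (PUS1 and TRMT10C) and 0 of 10 translation factors, against 5.34% of all genes. H2O2-only regions were found for 0 of 13 assembly factors, 0 of 9 translation factors, 0 of 10 synthetases and 0 of 4 tRNA processing factors, against 2.33% of all genes. SLIRP and TACO1, a translational activator, had UT-only regions against H2O2 (2 of 9 translation factors, against 5.49% of all genes).

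The cytosolic ribosomal protein genes, chosen by symbol with a few related names among them, are given for comparison. Of 91 such genes 57 had a peak, and 9 of 36 with a region in KO or WT had a KO-only region, beside 8 of 35 mitochondrial ones. In KO, 25 of 30 of their regions were in both replicates (83.3%, against 48.9% in the mitochondrial set). The order turned in WT (6.67% against 28.6%) and H2O2 (11.1% against 15.6%). In UT the shares were 22.6% against 5.41%, and in starved cells 14% against 13.1%. In the first WT list 23 cytosolic and 7 mitochondrial genes had a peak, and in the second 4 and 7. No difference between the sets was tested.

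The demethylase files give coverage along regions in WT and KO, with 10-nt windows placed every 5 nt. In member regions the IP values summed to nearly the same total, from 196.8 to 202.9. The totals of treated values were not taken. They held 13 members in KO (MRPL2, MRPL4, MRPL9, MRPL10, MRPL20, MRPL23, MRPL41, MRPL44, MRPL58, MRPS2, MRPS15, MRPS26 and MRPS30) and 3 in WT (MRPL10, MRPL24 and MRPS26). The demethylase-treated columns of the 2 replicate files of a genotype held the same values. In all 776 KO regions and all 351 WT regions with 10 or more windows at the same positions, treated coverage in 1 file was a constant multiple of that in the other, within a spread of 0.001 on the log2 scale. None of the 778 and 355 regions were proportional in this way for IP. Treated coverage was therefore counted as 1 library per genotype, whether it was 1 library or a pool, against 2 IP libraries. Scaling within a region removes its total, so if treated values were scaled like IP, a loss of signal over a whole region cannot be seen.

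Counted in this way, no window passed the threshold between treated and IP coverage, which does not show that the profiles were alike. Limma on log2(coverage + 1) took the spread from the 2 IP libraries, and the lone treated library is assumed to vary like them. In KO, 0 of 275 member windows on 9 transcripts passed an adjusted p of 0.05, and 39 had an unadjusted p under 0.05. Over all 24707 windows, 0% were called higher and 0% lower, and 4517 had an unadjusted p under 0.05. In WT, 0 of 50 member windows passed, all on MRPL10, and 19 had an unadjusted p under 0.05. Over all 11289 WT windows 0% were called in either direction, and 2513 had an unadjusted p under 0.05. Small unadjusted p-values were thus common in windows of all genes. With a pseudocount of 0.1 in place of 1, 14 WT windows of MRPL10 passed and 0 KO windows of members. The counts over all genes were 775 of 11289 in WT and 0 of 24707 in KO. With the treated columns taken as 2 libraries, 58 and 20 member windows passed in KO and WT. Of all windows, 5715 of 24707 passed in KO and 3645 of 11289 in WT. Those counts rest on 1 library entered a second time.

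The values of single windows are therefore given as a description. In MRPS2 in KO, at nt 71 to 80 of NM_016034, treated coverage was 0.49 and IP coverage 2.39 and 2.58. The log2 difference was -1.23 (SE 0.108, limma adjusted p = 0.183), the smallest adjusted p of a member in KO. In MRPL23 in KO, at nt 541 to 550, treated coverage was 1.66 on the scale of the first file and IP coverage 4.14 and 3.79. In MRPL9 in KO, at nt 221 to 230, treated coverage was 7.59 and 5.67 on the scales of the 2 files, above IP coverage of 3.76 and 3.47. In each of these windows the treated value lay outside the range of the 2 IP libraries.

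The MRPS26 coverage stepped up near nt 130 in both genotypes: in KO the IP value was 7.46 and 7.95 at nt 122 to 131, and 12.9 and 13.8 at nt 127 to 136. In treated KO coverage the step went from 8.15 to 14 at the same windows. In the first WT file it went from 7.93 to 14.3 in IP and from 8.49 to 13.9 in treated coverage, 1 nt further along. At the 3′ end of the region, nt 172 to 181 in KO, treated coverage was 6.48 and IP coverage 3.42 and 3.35 (log2 difference 0.77, SE 0.1, limma adjusted p = 0.199). In the second WT file IP coverage went from 7.42 at nt 121 to 130 through 9.48 at nt 126 to 135 to 13.6 at nt 131 to 140, and treated coverage from 7.59 through 10.6 to 13. The step was thus present in each file with and without demethylase. Of 28 MRPS26 windows tested in KO, 8 had an unadjusted p under 0.05, beside 4517 of all 24707 KO windows. The log2 differences ran from -0.62 to 0.77 over the 28.

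Only MRPL10 and MRPS26 had windows that could be set side by side between the genotypes. MRPL10 showed the larger differences, with no window past the threshold. In WT, at nt 213 to 222 of NM_148887, treated coverage was 0 and IP coverage 6.05 and 5.97. The log2 difference was -2.81 (SE 0.186, limma adjusted p = 0.0815). The WT treated profile of MRPL10 stood in flat blocks, at 5.51 from nt 38 to nt 82, at 0 in the windows that start at nt 83 to nt 223, and at 5.51 and 8.26 after that. At windows matched within 4 nt, a choice made after seeing the data, the log2 difference of treated and IP coverage was 2.77 higher in KO than in WT at nt 210 to 219 (SE 0.18, limma adjusted p = 0.0559). Of 76 member windows so matched, on MRPL10 and MRPS26, 0 passed. Of these, 21 had an unadjusted p under 0.05, all on MRPL10 and higher in KO. Among all 10770 windows so matched, 1978 had one. At exactly the same positions in all 4 files no member window could be tested. Over the 2508 windows of other genes, 1.32% were called higher in KO and 0.279% lower.

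**Figure D4:**
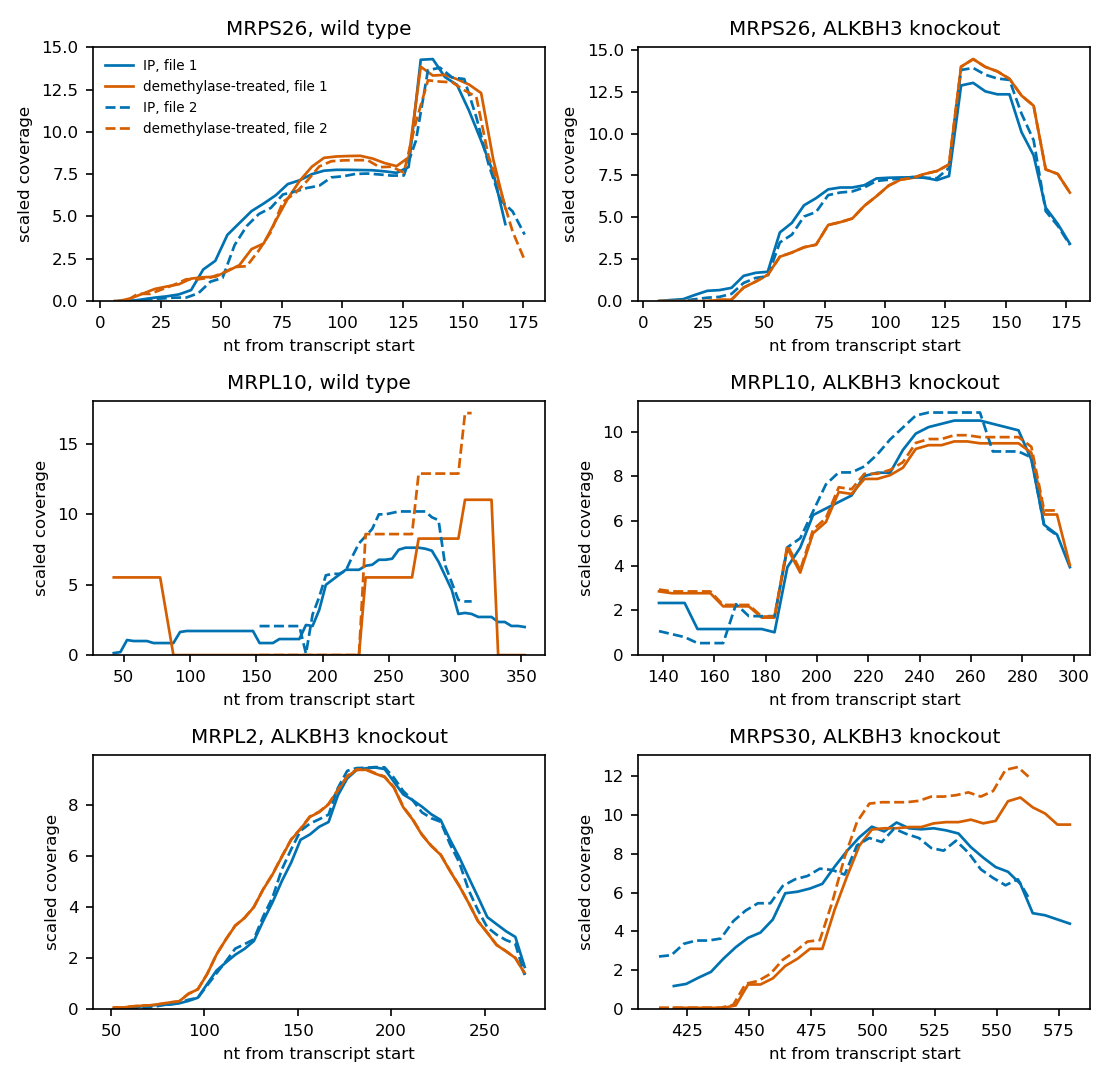
Scaled coverage in windows of 10 nt against the position on the transcript for MRPS26 and MRPL10 (NM_148887) in wild type and ALKBH3 knockout, and for MRPL2 and MRPS30 in the knockout. Blue is IP and orange demethylase-treated, with solid and dashed lines for the 2 files. MRPS26 steps from 8.15 to 14 near nt 130 in treated KO coverage, and treated MRPL10 in WT is 0 at nt 213 to 222.

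Treated coverage of members in KO was on the whole shifted slightly toward the 3′ end of the region. The centroid, the mean position weighted by coverage, was compared between treated and IP in each file, and the 2 files share the treated values. Over 21 member transcript regions of 13 genes the median shift was 4.68 nt toward the 3′ end, against 0.124 nt over 2104 regions of all genes. Both files gave a shift toward the 3′ end for 14 of the 21 (66.7%, against 40.4% of all) and toward the start for 5 (23.8%, against 39.8%). The largest shifts were those of MRPS15, 12.3 and 40.9 nt, MRPL23, 33 and 13.1 nt, and MRPS30, 18.8 and 22.6 nt. MRPL2 shifted the other way, by -7 and -5.3 nt. MRPS2 contributed 5 of the 21 regions, all toward the 3′ end, and they share reads. In WT, with 4 member regions, the shift of MRPL10 on NM_148887 was -0.5 and 30.5 nt. The 2 files cover different spans of that region, nt 38 to 357 and nt 148 to 317, so these 2 shifts are not like for like. Over full spans, 2 of the 4 regions shifted toward the 3′ end in both files (50%, against 30.5% of all). At positions in both files it was 3 of the 4 (75%, against 38.8% of all).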

How the data were processed

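Libraries of input, anti-m1A IP and IP followed by demethylase were made by the authors from polyadenylated RNA of HEK293T cells, per the labels. Trim Galore, HISAT, MACS2 and hg19 are named, without versions or roles, in the submitters' processing notes. Peaks were called with MACS2 in each replicate against RefSeq transcripts, per the file headers, and which input served as control is not stated there. Of the deposited values, pileup is coverage signal at the peak's summit, the deposited fold enrichment is a ratio over local background, and the deposited −log10 q-value was used as an alternative filter. The windowed files hold coverage signal that is named as normalized per the file headers. In member regions its IP values sum to nearly the same total, and totals of treated values were not taken.

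Symbols came from RefSeq (GRCh38.p14, used for names and the printed gene starts), and 17018 of 17315 transcripts matched (98.3%). RefSeq also holds 106 MRPL or MRPS pseudogene symbols. How reads shared with pseudogenes or between transcripts were counted is not given, so single transcripts are uncertain. The members and lists were chosen with earlier results of these data known. Named genes were members with a region in 8 or more lists, up to 10 per side of a comparison by the lower fold of the 2 replicates, up to 10 with windows past the threshold, members with a region in both lists of 1 condition only, and members with summits beyond nt 300 in both replicates, and up to 3 genes of each other list by the number of lists that called them. The genes named by a comparison from the other lists, MRPL2, MRPS21 and the window and shift examples were added after their values were seen.

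Windows were tested with limma 3.58.1 in R 4.3.3, with a pseudocount of 1, mean coverage of 1 or more and Benjamini-Hochberg adjustment. The planned fit with 2 treated libraries was replaced because the treated columns of both files are proportional. The peak script (Python 3.11.15, pandas 2.3.3) and the window script were tested on simulated data. Alternatives covered overlap, fold, q-value, list length, whole genes, pseudocounts, filters and left-out replicates.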

Additional observations from a re-analysis of the deposited data

How the results depend on the processing

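Of 60 alternatives other than left-out replicates, 41 stayed within 1.5 times the reported value or within its spread, and 19 moved. For the peak counts alone, 26 of 40 stayed. The 41 include settings of the KO against WT window comparison at exactly the same positions, where no member window existed. There the value was bound to be 0, so those settings show no stability. With a fold of 4 or more, KO-only members numbered 5 (359 of all genes), WT-only against KO 0 (153), H2O2-only 2 (114), UT-only against H2O2 0 (153) and UT-only against WT 1 (180). The 5 held 4 of the 8 reported and MRPL10. When every list was cut to an equal number of top peaks, WT-only against KO gave 0 (243 of all genes), H2O2-only 2 (135) and UT-only against WT 0 (66). With the whole gene deciding, WT-only against KO gave 0 (194 of all genes), UT-only 8 against H2O2 (619), 2 against starved cells (345) and 9 against WT (950). With an overlap of 50% of the shorter peak, starved-only gave 2 (363 of all genes) and WT-only against UT 2 (199). Equal counts could hold other names: at equal list lengths the UT-only member against H2O2 was MRPL41, and by whole gene 2 of the 4 starved-only members were those reported. At a fold of 4 or more the WT-only member against UT was MRPS26. Each list was also left out in turn, a group with 1 list left needing only that list. KO-only then ranged from 10 to 18 (800 to 1253 of all genes) and WT-only against KO from 1 to 4 (258 to 1075). H2O2-only ranged from 4 to 14 (245 to 2659) and UT-only against H2O2 from 1 to 18 (501 to 3558). Starved-only ranged from 4 to 25 (594 to 3931) and UT-only against starved cells from 0 to 13 (444 to 3279). UT-only against WT ranged from 2 to 17 (466 to 3661) and WT-only against UT from 1 to 3 (285 to 1008). The counts of all genes thus also varied widely. The cause was not tested.

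Of the windows on members, the number past an adjusted p of 0.05 (limma) was 14 in WT with a pseudocount of 0.1 (775 of all 11289 windows). With the replicate number as a replicate block the number of windows was 18 in WT (2635 of all 11289) and 34 in KO (4198 of all 24707). With the treated columns counted as 2 libraries, an alternative chosen after seeing the data, it was 20 (3645) and 58 (5715). Both of these fits enter 1 treated library as 2. Deviations of same-numbered IP and treated libraries correlated at 0.846 (WT) and 0.859 (KO), but with 2 pairs and a shared treated track the numbers were not taken to pair the samples. Matching windows within 4 nt and using only positions in both files were also chosen after seeing the data. Leaving out a replicate gave no value in windows. IP replicates correlated at 0.535 in WT and 0.772 in KO, which limits the WT windows more. Unknown read totals limit every statement on a missing peak.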
